A study of Mus musculus with 9 samples.

Results

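The transforming growth factor beta (TGF-beta) and bone morphogenetic protein (BMP) genes described here are 3 TGF-beta ligands (Tgfb1, Tgfb2 and Tgfb3), the type I and type II TGF-beta receptors (Tgfbr1 and Tgfbr2), the ligand Bmp4 and the type I BMP receptor Bmpr1a. They were taken as all probe sets that the platform annotation gives to 1 of these 7 genes and to no other. This gave 9 probe sets of the 12488 on the array, with 2 each for Tgfb3 and Bmp4, and 0 shared with another gene. The arrays are Affymetrix arrays of mouse transcripts, and 9 were hybridised in 4 groups. Strain, genotype and any treatment are not given in the sources used here. The groups were cornea of adult mice aged 7 weeks (3 arrays), cornea at postnatal day 10 (P10, 2 arrays), lens of adults aged 7 weeks (2 arrays) and flexor digitorum longus tendon of adults aged 7 weeks (2 arrays). Corneas were cut free of the limbus and their epithelium was scraped away before extraction, which enriched them for stroma and left some epithelial RNA. Lenses and tendons were pooled before extraction. Each array was a separate RNA preparation, so the p-values reflect how preparations vary. The cornea arrays had served an earlier study of the same laboratory, so a batch and the tissue cannot be told apart in any comparison of cornea with lens or tendon.

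TGF-beta ligands are secreted in a latent form, stored in the matrix and, once released, bind a type II receptor that recruits and activates a type I receptor. The activated pair phosphorylates Smad proteins, which enter the nucleus and change transcription; BMPs use a parallel set of receptors and Smads. In the cornea TGF-beta is known for turning quiescent keratocytes into fibroblasts and contractile myofibroblasts after wounding. In the lens it is known for driving epithelial cells toward a fibrotic form while BMPs take part in lens induction and fibre formation, and in tendon it maintains the progenitors that build the collagen matrix.

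Each level is the index that was deposited, in arbitrary units, per array or as mean ± SD. Array medians ranged from 67.6 to 88.0. An index depends on the probes of its probe set, so levels are compared between tissues and not between genes. Differences were tested with limma on log2(index + 16), a scale that understates the fold of low values, and adjusted by Benjamini-Hochberg over all 8154 probe sets at or above the array's median on 2 or more arrays. A probe set is said to be called where the adjusted p was under 0.05. Of the 9 probe sets, 6 passed this filter. Tgfb2 passed through the lens arrays, 1 Bmp4 probe set (93456_r_at) through the tendon arrays, and Tgfbr2 through 1 adult and 1 P10 cornea array. Their calls are therefore tied to the tissue where they were high. Tgfbr1, Bmpr1a and 1 Tgfb3 probe set (161382_at) did not pass and were fitted among all probe sets with no filter. In these bulk tissues, fewer cells of a type and less RNA per cell cannot be told apart.

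The summed markers of lens, corneal epithelium, keratocytes and tendon were highest in their own tissue, for keratocytes through Aldh3a1, while some single genes were not. Transcripts of other tissues were present as well. The summed index of 7 lens genes was 33863 to 35264 in lens, 4715 to 8573 in cornea and 531 to 578 in tendon, where Crybb2 and Cryba1 were at or below 0 on both arrays. Of 9 corneal epithelial genes the sum was 16018 to 18688 in cornea, 2112 to 2495 in lens and 673 to 1421 in tendon. Krt5 alone of these had its highest mean in lens (105, against 77.5 to 97.8 elsewhere). Keratocyte genes (8 of 8 measured) summed to 11173 to 12380 in adult cornea, 15914 to 16199 at P10, 1953 to 3580 in lens and 9405 to 10184 in tendon, and Aldh3a1 was at or below 0 on both tendon arrays. Aldh3a1, with a mean of 6605 in adult and 6602 in P10 cornea, was the largest part of the sum there. That the corneas stood above tendon in this sum rests on this gene. Kera, Lum, Aldh3a1 and Col5a2 had their highest mean in a cornea group, Aldh1a1 and Ptgds in lens, and Dcn and Cd34 in tendon. Of 8 tendon genes 4 were measured, and the defining Tnmd, Comp, Thbs4 and Mkx were not among them; the sum was 19097 to 21223 in tendon and 237 to 7334 elsewhere. The tendon arrays also held skeletal muscle transcripts (8 of 8), summing to 36008 to 43330 against 235 to 899 elsewhere. Vascular endothelial genes (7 of 7) summed to 955 to 982 in tendon and 396 to 693 elsewhere. Of the 7, Cdh5, Tek, Emcn and Flt1 had their highest mean in tendon, while Pecam1 was at or below 0 on all tendon, lens and P10 arrays, Kdr was highest in the corneas and Tie1 in lens. Cdh5 was at or below 0 on both lens arrays. Leukocyte genes (7 of 7) summed to 1910 to 1945 in tendon and 382 to 961 elsewhere, and pigment cell genes (4 of 5) to 1246 to 3509 in P10 cornea and 393 to 653 elsewhere. The part of these cells in the results below was not tested. The RNA of adult cornea replicate 1 stood apart, with a 3′/5′ signal ratio of 2.25 for Gapdh against 0.831 to 1.04 on the other arrays.

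The 3 TGF-beta ligands had 3 different tissue patterns. Tgfb1, the most widely expressed TGF-beta and the isoform of immune and wound responses, was lowest in lens. Its index was 75.9, 144 and 83.9 in adult cornea, 68.9 and 66.6 in P10 cornea, 56.9 and 9.86 in lens, and 112 and 109 in tendon. Both lens arrays lay below every other array, and they stood far apart from each other. The means were 111 ± 1.91 in tendon (SD, n = 2), 101 ± 37.3 in adult cornea (n = 3), 67.8 ± 1.66 in P10 cornea (n = 2) and 33.4 ± 33.2 in lens (n = 2). Tendon and adult cornea, next to each other in this order, overlapped, with a log2 difference (adult cornea minus tendon) of -0.16 and a 95% interval of -1.02 to 0.71. Adult cornea was above P10 cornea by 0.44 on the log2 scale (SE 0.39), which did not pass the test (adjusted p = 0.69 by limma). P10 cornea was not called against lens (log2 difference 0.95, 95% interval -0.003 to 1.90, adjusted p = 0.0881 by limma). Over the alternatives that difference ranged from 0.20 to 1.70. Adult cornea was higher than lens by 1.39 on the log2 scale (SE 0.39, 2.62-fold, adjusted p = 0.0133 by limma), and lens was lower than tendon by 2.92-fold (adjusted p = 0.0127 by limma). Both calls rest on the lens array with the index of 9.86, lens replicate 2. Without it the log2 difference between adult cornea and lens was 0.64 (adjusted p = 0.148 by limma) and that between lens and tendon was -0.80 (adjusted p = 0.0928). Without lens replicate 1 they were 2.14 and -2.29. The call against tendon was also lost without tendon replicate 1 (adjusted p = 0.0635) or 2 (0.0578).

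Tgfb2, the isoform of the eye's anterior chamber and of developing mesenchyme, had its highest index in lens. It read 26.9, 23.8 and 36.8 in adult cornea, 46.7 and 74.3 in P10 cornea, 134 and 93.3 in lens, and 67.2 and 78.7 in tendon. All 3 adult corneas lay below all other arrays, and both lens arrays above all others. The mean was 114 ± 29.1 in lens (SD, n = 2), 72.9 ± 8.11 in tendon (n = 2), 60.5 ± 19.5 in P10 cornea (n = 2) and 29.2 ± 6.75 in adult cornea (n = 3). P10 cornea and tendon overlapped, and lens was not called against tendon (log2 difference 0.53, SE 0.26, adjusted p = 0.12 by limma). Adult cornea was lower than lens by 2.86-fold (log2 difference -1.52, SE 0.24, adjusted p = 0.000483 by limma). It was also lower than tendon by 1.98-fold (adjusted p = 0.00927 by limma), a call lost without tendon replicate 1 (adjusted p = 0.0551) or 2 (0.0995). P10 cornea was lower than lens by 1.70-fold (adjusted p = 0.0321 by limma). That call was lost without P10 cornea replicate 1 (log2 difference -0.51, adjusted p = 0.244) and without tendon replicate 1 (0.0535) or 2 (0.0537). It was also lost with a pseudocount of 1 (0.0529) and with the 2 groups alone (0.0563). The P10 and adult corneas did not overlap, and their log2 difference of -0.75 (95% interval -1.28 to -0.21) had an adjusted p of 0.133 by limma. Fits without a lens array did not test Tgfb2, which passed the filter through those arrays.

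The promoters of Tgfb1 and Tgfb2 are shown because these ligands stood at opposite ends in lens, Tgfb1 lowest and Tgfb2 highest, and because their promoters differ in make-up. Each run holds the 250 bases before the start site that RefSeq gives on GRCm38.p6, 5′ to 3′ on the gene's strand, with a TATA box (letters TATAAA) or a GC box (letters GGGCGG), on either strand, in capitals. RefSeq windows were found for 6 of the 7 genes; Tgfb3 was the other.
Tgfb1, chr7:25686752-25687001, plus strand: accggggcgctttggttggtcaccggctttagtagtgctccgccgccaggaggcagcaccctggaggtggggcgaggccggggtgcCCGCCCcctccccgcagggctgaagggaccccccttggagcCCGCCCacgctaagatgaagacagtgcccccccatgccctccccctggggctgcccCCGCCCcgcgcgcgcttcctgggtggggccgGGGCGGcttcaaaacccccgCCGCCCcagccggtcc
Tgfb2, chr1:186705990-186706239, minus strand: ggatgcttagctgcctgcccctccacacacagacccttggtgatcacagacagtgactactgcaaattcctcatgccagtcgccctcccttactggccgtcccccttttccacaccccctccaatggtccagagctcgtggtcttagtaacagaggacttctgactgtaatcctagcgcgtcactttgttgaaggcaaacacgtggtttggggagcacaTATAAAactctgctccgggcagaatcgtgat
The Tgfb1 window held 5 GC boxes and 0 TATA boxes, at 75.2% G and C. The Tgfb2 window held 0 GC boxes and 1 TATA box, whose first base lies 31 bases before the start site, at 53.6% G and C. Among 32851 windows of the same length, 32.74% held a GC box and 12.37% a TATA box. GC boxes were also in the windows of Tgfbr1 (2 in 1 of its 2 windows), Bmp4 (1) and Bmpr1a (4), and Tgfbr2 had 0 of either motif. A match describes the letters in these windows, and binding was not measured. Whether the letters have any link to the levels in lens was not tested.

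Tgfb3, the isoform of palate fusion and of tendon and muscle development, was highest in tendon. On probe set 102751_at the index was 48.7, 61.6 and 84.1 in adult cornea, 88.8 and 88.2 in P10 cornea, 200.3 and 152 in lens, and 414 and 407 in tendon. The 4 groups did not overlap and stood in the order tendon, lens, P10 cornea, adult cornea, with means of 410.3 ± 5.07, 176 ± 34.5, 88.5 ± 0.395 (SD, n = 2 each) and 64.8 ± 17.9 (SD, n = 3). Adult and P10 cornea, the neighbours at the low end, differed by -0.40 on the log2 scale (95% interval -0.89 to 0.10, adjusted p = 0.451 by limma). Tendon was higher than adult cornea by 5.36-fold (log2 difference -2.42, SE 0.22, adjusted p = 1.65e-05 by limma). It was higher than P10 cornea by 4.08-fold (adjusted p = 0.000178 by limma) and than lens by 2.24-fold (adjusted p = 0.00269 by limma). Lens in turn was higher than adult cornea by 2.40-fold (adjusted p = 0.000935 by limma). These 4 calls were kept in all 17 alternative limma fits. Under the methods' test, defined at the end, those of tendon against the corneas were kept and those with lens were not. Lens was also higher than P10 cornea by 1.82-fold (adjusted p = 0.0135 by limma), a call lost without P10 cornea replicate 1 (adjusted p = 0.0673), P10 cornea replicate 2 (0.0642) or lens replicate 1 (0.0776). The summed skeletal muscle and tendon genes were also highest on the tendon arrays, and their part in the Tgfb3 level was not tested.

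The other Tgfb3 probe set, 161382_at, read far lower and was under its array's median on all 9 arrays. Its index was 5.46, 8.58 and 5.00 in adult cornea, 10.4 and 13.6 in P10 cornea, 17.1 and 14.7 in lens, and 46.1 and 43.5 in tendon. The groups again did not overlap and stood in the same order. Fitted with no filter, tendon was higher than adult cornea (2.73-fold, adjusted p = 0.000157 by limma), P10 cornea (2.17-fold, 0.00266) and lens (1.91-fold, 0.0035). Lens against adult cornea was called as well (adjusted p = 0.0408 by limma), but in 5 of 15 alternatives. It was lost without adult cornea replicate 1 (0.093) or 3 (0.0718), P10 cornea replicate 1 (0.0668) or 2 (0.0672), and lens replicate 1 (0.133) or 2 (0.0833). Over the 9 arrays the log2 values of both Tgfb3 probe sets had a Pearson r of 0.953, as a description of arrays that share their tissues.

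Bmp4, the BMP that takes part in lens induction and in patterning of the eye, was read by 2 probe sets that did not give the same picture. On 93455_s_at, a set whose probes may match several transcripts, the index was 283, 212 and 387 in adult cornea, 280 and 367 in P10 cornea, 295 and 221 in lens, and 294 and 295 in tendon. All groups overlapped. The means ran from 258 ± 51.8 in lens (SD, n = 2) to 323 ± 61.8 in P10 cornea (SD, n = 2), and the test of any difference among the 4 groups gave an adjusted p of 0.773 by limma. The 95% intervals of the log2 differences lay between -0.82 and 0.94 over the 6 comparisons. A difference inside the interval of its own comparison is not excluded by these arrays.

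On 93456_r_at, a set picked after some rules of probe choice had been dropped, Bmp4 read 45.2, 38.7 and 39.6 in adult cornea, 69.5 and 48.6 in P10 cornea, 27.8 and 20.9 in lens, and 89.5 and 90.9 in tendon. Here the groups did not overlap, in the order tendon, P10 cornea, adult cornea, lens. Tendon was higher than adult cornea by 1.86-fold (log2 difference -0.89, SE 0.20, adjusted p = 0.00582 by limma) and than lens by 2.64-fold (adjusted p = 0.000443 by limma). These 2 calls were kept in all 14 alternative limma fits that tested them, and neither was called by the methods' test. Fits without a tendon array were not among the 14, because the set passed the filter through those arrays. How far the calls rest on 1 tendon array was therefore not tested. P10 cornea was higher than lens by 1.85-fold (adjusted p = 0.0072 by limma), a call lost without P10 cornea replicate 1 (adjusted p = 0.0852) or lens replicate 2 (0.0607). The neighbours tendon and P10 cornea (adjusted p = 0.11), P10 and adult cornea (0.406) and adult cornea and lens (0.0557) were not called by limma. The last of these was called with a pseudocount of 1 (0.0438) and with trimmed mean scaling (0.0335), and tendon against P10 cornea with quantile normalization (0.0427). The log2 values of the 2 Bmp4 probe sets had a Pearson r of 0.271 over the 9 arrays. Which of them follows the Bmp4 transcript was not tested, so no direction is given for the gene.

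**Figure D1:**
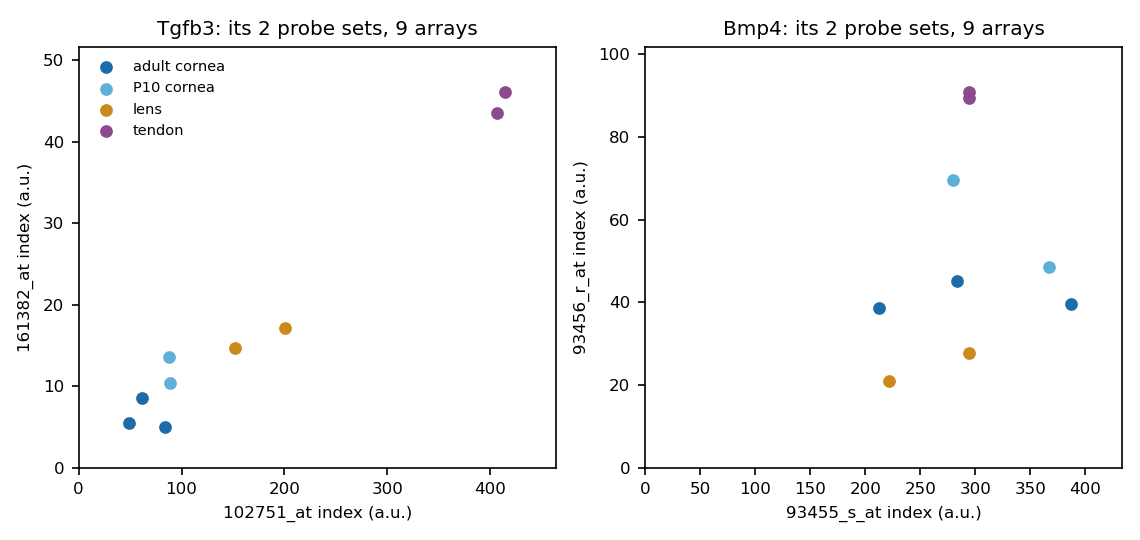
Index of the 2 probe sets of Tgfb3 (left) and of Bmp4 (right) in arbitrary units, each point being 1 of the 9 arrays coloured by tissue. The Tgfb3 sets rise together from adult cornea to tendon, while the Bmp4 set 93456_r_at separates tendon (89.5 and 90.9) from lens (27.8 and 20.9) and 93455_s_at does not.

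Among the receptors, Tgfbr1, the type I kinase that TGF-beta signals through, had its highest index in P10 cornea. It read 28.7, 31.8 and 35.4 in adult cornea, 100.6 and 71.7 in P10 cornea, 37.0 and 30.1 in lens, and 47.2 and 58.0 in tendon. Both P10 arrays lay above all others, and adult cornea and lens overlapped (log2 difference -0.05, 95% interval -0.50 to 0.41). The set reached its array's median on 1 array, so it was fitted with no filter. There, adult cornea was lower than P10 cornea by 2.11-fold (log2 difference -1.08, SE 0.20, adjusted p = 0.0173 by limma). That call did not hold without adult cornea replicate 1 (0.06), P10 cornea replicate 1 (0.258) or P10 cornea replicate 2 (0.068). It was also lost in a fit of the 2 groups alone (0.0893). P10 cornea was higher than lens by 2.05-fold (adjusted p = 0.00423 by limma), a call lost without P10 cornea replicate 1 (0.0588). The next in order, tendon, was not called against P10 cornea (0.107), lens (0.125) or adult cornea (0.0933) by limma. The summed pigment cell, keratocyte and corneal epithelial genes were also highest in P10 cornea, and their part was not tested.

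Tgfbr2, the type II receptor that binds the ligand first, was lowest in lens. The index was 77.4, 66.8 and 108 in adult cornea, 75.6 and 102 in P10 cornea, 53.0 and 34.8 in lens, and 67.7 and 69.0 in tendon. Both lens arrays lay below all others, while the corneas of both ages overlapped. The set passed the filter through adult cornea replicate 3 and P10 cornea replicate 2 alone, so its calls are tied to cornea. Fits without either of these arrays did not test it. Adult cornea was higher than lens by 1.67-fold (log2 difference 0.74, SE 0.24, adjusted p = 0.0244 by limma) and P10 cornea by 1.76-fold (adjusted p = 0.0239 by limma). Without lens replicate 2 both calls were lost (adjusted p = 0.193 and 0.159), the first also with the 2 groups alone (0.0658) and with the replicate block (0.072), the second also with quantile normalization (0.0645). The test of any difference among the 4 groups gave an adjusted p of 0.0539 by limma. Tendon overlapped adult cornea and was not called against lens (log2 difference -0.51, 95% interval -1.09 to 0.06).

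Bmpr1a, the type I receptor for several BMPs, was also lowest in lens. It read 57.6, 40.7 and 64.5 in adult cornea, 93.1 and 66.4 in P10 cornea, 19.2 and 18.6 in lens, and 70.8 and 63.6 in tendon. Both lens arrays were below every other array by more than their own spread, with a mean of 18.9 ± 0.424 (SD, n = 2) against 54.3 ± 12.3 in adult cornea (SD, n = 3). The set reached the array's median on 1 array, so it was fitted with no filter. Lens was lower than adult cornea by 1.99-fold (adjusted p = 0.00435 by limma), than P10 cornea by 2.72-fold (0.000901) and than tendon by 2.38-fold (0.0019). All 3 calls were kept in the 15 alternative limma fits that tested them, and none was called by the methods' test. Tendon overlapped the corneas of both ages, and adult and P10 cornea differed by -0.45 on the log2 scale (95% interval -0.93 to 0.04, adjusted p = 0.401 by limma).

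**Figure D2:**
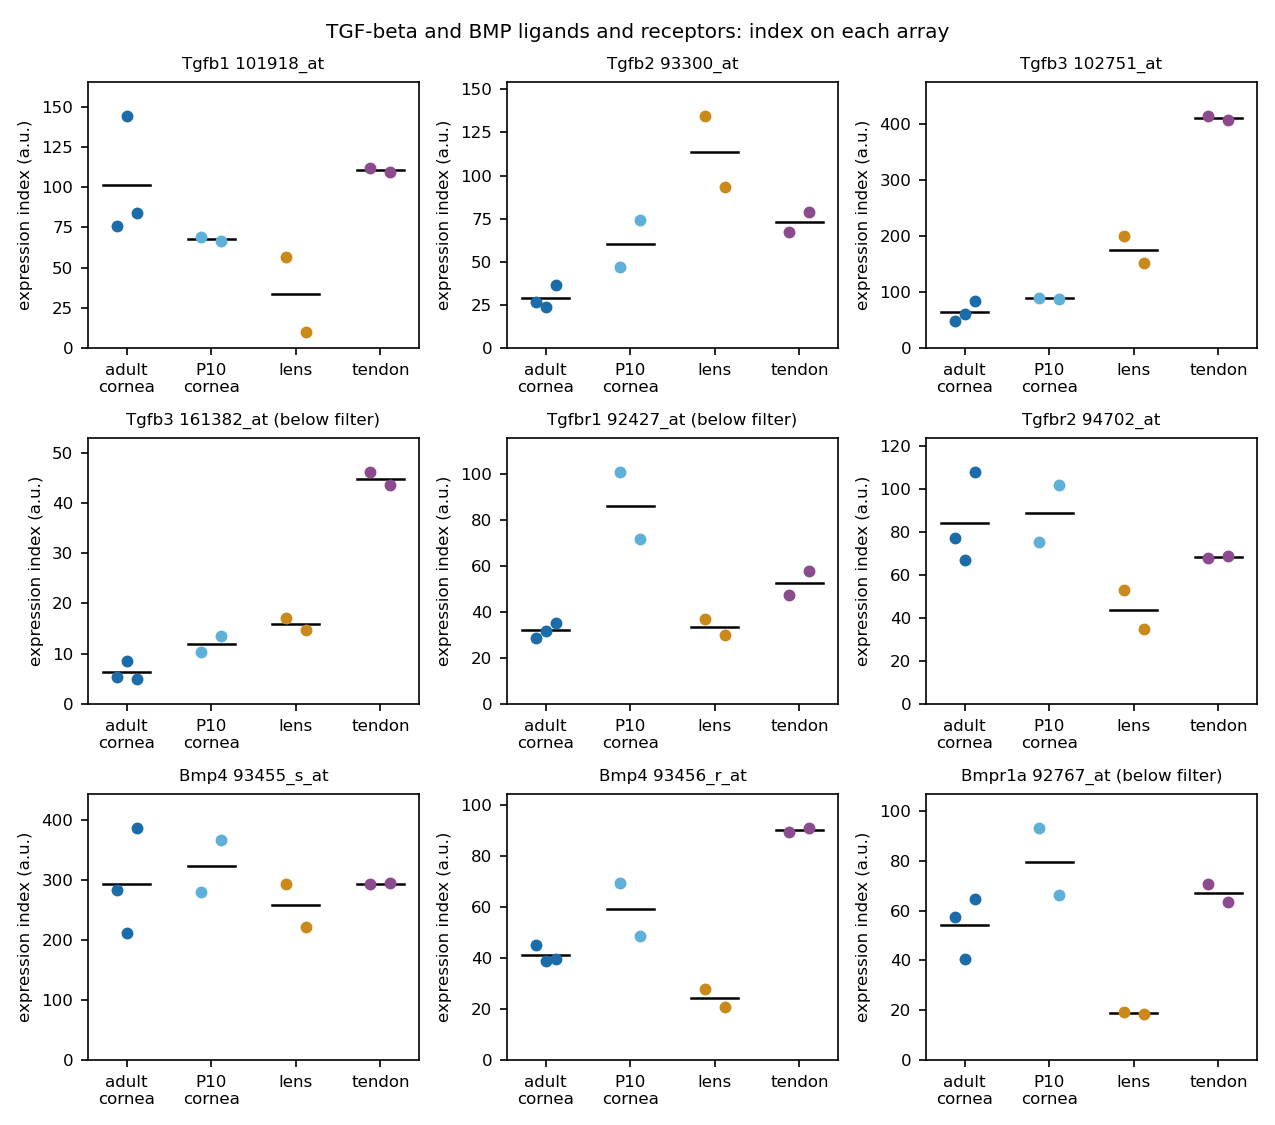
Expression index in arbitrary units of the 9 probe sets, 1 point per array, with a bar at the mean of each group (adult cornea 3 arrays, the others 2). Each axis starts at 0; lens holds the lowest arrays for Tgfb1, Tgfbr2, Bmpr1a and 93456_r_at of Bmp4, and tendon the highest for both Tgfb3 sets.

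Counted by comparison, the shares below are read against all 8154 tested probe sets. Between adult and P10 cornea, 0 of the 6 tested sets were called, where 0.699% of all sets were called higher in the adult and 3.88% lower; with no filter, Tgfbr1 was called. At an unadjusted limma p under 0.05, 0 of the 6 were higher in the adult (2.61% of all sets) and 1, Tgfb2, was lower (13.1% of all sets). Against lens, adult cornea had 2 of 6 higher (Tgfb1 and Tgfbr2; background 27.2%) and 2 lower (Tgfb2 and Tgfb3; background 24%). P10 cornea against lens also had 2 of 6 higher (Tgfbr2 and 93456_r_at of Bmp4; background 31.6%) and 2 lower (Tgfb2 and Tgfb3; background 19.4%). Adult cornea had 0 of 6 higher than tendon (background 16.1%) and 3 lower (Tgfb2, Tgfb3 and 93456_r_at of Bmp4; background 18.9%). P10 cornea had 0 higher than tendon (background 15.7%) and 1 lower (Tgfb3; background 11%). Lens had 0 higher than tendon (background 22.6%) and 3 lower (Tgfb1, Tgfb3 and 93456_r_at of Bmp4; background 26.4%). Some difference among the 4 groups was called for 4 of 6 sets, close to the background of 64.5%. With so few sets these counts describe the genes and do not set them apart from the rest of the array. The comparisons share arrays, so their counts are not independent. Quantile normalization moved the median log2 difference of all tested sets between adult and P10 cornea from -0.13 to 0.02, and the share of calls that were higher in the adult from 15.3% to 27.3%.

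**Figure D3:**
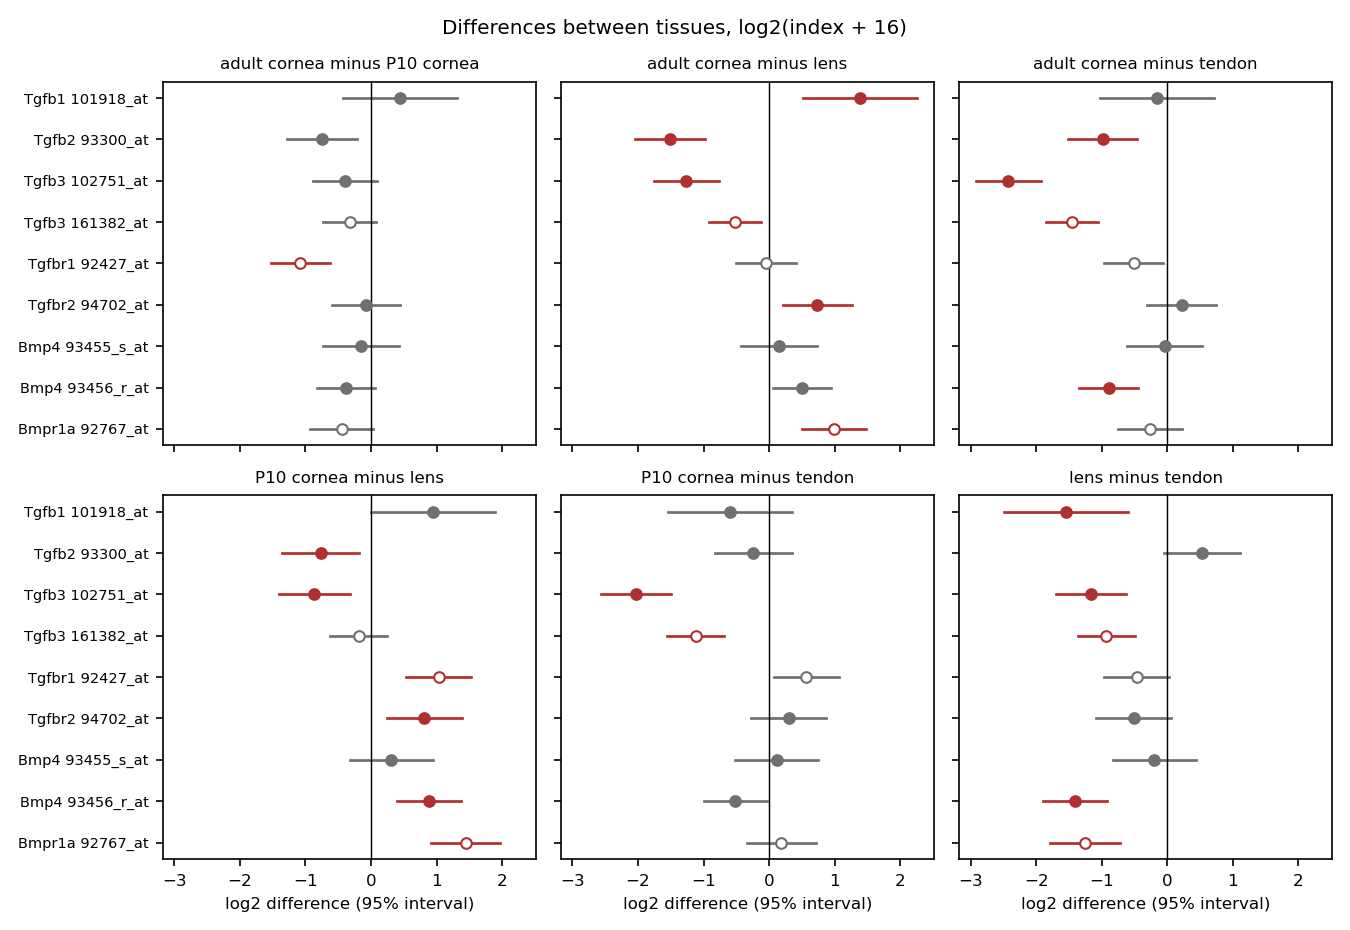
Log2 difference, first tissue minus second, with its 95% interval for the 9 probe sets in the 6 comparisons, on the log2(index + 16) scale. Red marks an adjusted p under 0.05, filled points the fit past the filter and open points the fit with no filter; Tgfb3 lies left of 0 wherever tendon is the second tissue.

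The other genes of the pathway were taken from a list of 101 genes in 6 roles, of which 76 are on the array as the sole gene of a probe set and 59 passed the filter. Between adult and P10 cornea, 0 of the 59 were called higher (0.699% of all tested sets) and 11 lower (3.88%) in the adult, with a median log2 difference of -0.25 against -0.13 over all tested sets. Adult cornea had 19 of 59 higher than lens (27.2% of all sets) and 15 lower (24%), and both counts are near those shares. Against tendon it had 6 higher (16.1% of all sets) and 21 lower (18.9%). P10 cornea had 23 higher (31.6%) and 8 lower (19.4%) than lens, and 5 higher (15.7%) and 11 lower (11%) than tendon. Lens had 11 higher (22.6%) and 27 lower (26.4%) than tendon. The summed pigment cell genes were also lower in adult (503 to 653) than in P10 cornea (1246 to 3509). So were the skeletal muscle genes (340.2 to 429 against 692 to 899). Of these, Pvalb and Acta1 averaged 172 and 39.6 in adult and 469 and 130 in P10 cornea, while Ckm alone was higher in the adult (14.8 against 12.2). Ckm, Myh4, Tnnt3, Tnni2 and Mylpf averaged 4.91 to 28.7 at both ages, below the lowest array median of 67.6. The keratocyte sum (11173 to 12380 against 15914 to 16199) and the tendon sum (2538 to 2659 against 6909 to 7334) were lower in the adult too. Most of the tendon sum was Col1a1 (mean 2279 in adult and 6452 in P10 cornea), itself 1 of the 11 genes called lower. Fmod averaged 136 and 492, Scx 94.2 and 106, and Chad 73.9 and 71.5. The part of pigment, muscle, keratocyte and tendon cells in the age differences was not tested. Of the 59, Gdf5, Fstl3 and Cer1 passed the filter through the lens arrays alone, and Gdf10, Tgfbr3 and Ccn1 through the tendon arrays alone, so their calls are tied to the tissue where they were high. Of these 157 calls, 102 were kept in every alternative limma fit that tested them. The 6 sets that passed the filter through 1 tissue alone were not tested without an array of that tissue.

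Among the 13 other ligands tested, 0 were called between adult and P10 cornea, near the shares of all tested sets (0.699% higher and 3.88% lower in the adult). The inhibin and activin subunits split in lens. Inhbc, an activin subunit, read 495 and 327 in lens against 31.3 to 87.1 on the other 7 arrays, and adult cornea minus lens was -2.53 on the log2 scale (adjusted p = 0.00011 by limma). Inha, the subunit that makes inhibins, read 18.7 and 40.3 in lens against 79.3 to 195 elsewhere (adult cornea higher by 1.66, adjusted p = 0.0021 by limma). Inhba, the activin A subunit, was listed at 124 and below 0 on the 2 lens arrays. Its call against adult cornea (adjusted p = 0.0227 by limma) was lost with a pseudocount of 1, without adult cornea replicate 1 and without lens replicate 2. The log2 difference was 0.55 without lens replicate 2 and 3.69 without lens replicate 1. Gdf5, a BMP-family factor of joints and tendon, was higher in lens (98.5 and 119) than on the other arrays (16.7 to 39.6). The log2 difference from adult cornea to lens was -1.59 for Gdf5 (adjusted p = 0.000191 by limma), a set that passed the filter through lens. Gdf10, which passed the filter through tendon, was higher there (108 and 110.3) than in adult cornea (adjusted p = 0.014 by limma).

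Of the 6 other receptors and co-receptors, Tgfbr3, the co-receptor betaglycan that presents TGF-beta to the type II receptor, differed between the ages. It read 19.2, 16.3 and 17.1 in adult cornea, 60.4 and 47.6 in P10 cornea, 11.6 and 5.29 in lens, and 115 and 131 in tendon. Adult cornea was lower than P10 cornea by 1.06 on the log2 scale (adjusted p = 0.0189 by limma), a call lost with a pseudocount of 1 or when either P10 array was dropped (0.0543 to 0.24). Adult cornea was also lower than tendon, by 2.05 on the log2 scale (adjusted p = 3.36e-05 by limma), and the set had passed the filter through tendon alone. Acvrl1, a type I receptor of vascular endothelium for BMPs and TGF-beta, read 257 and 288 in tendon and 25.3 to 118 elsewhere. Adult cornea was lower than tendon by 1.44 for Acvrl1 (adjusted p = 0.00294 by limma). The summed vascular endothelial genes were also highest in tendon, though Pecam1, Kdr and Tie1 were not, and their part was not tested. Eng, the other co-receptor, and Acvr2a were not called in any of the 6 comparisons.

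Of the 6 genes of latency, activation and matrix storage, 2 were called lower (3.88% of all tested sets) and 0 higher (0.699%) in adult than in P10 cornea. Both encode latent TGF-beta binding proteins. Ltbp4, which anchors latent TGF-beta to elastic fibres, read 152, 261 and 183 in adult cornea, 612 and 648 in P10 cornea, 64.6 and 64.7 in lens, and 528 and 498 in tendon. The adult corneas lay between lens and the other tissues. Adult cornea was lower than P10 cornea by 1.62 on the log2 scale (adjusted p = 0.00348 by limma), a call lost without P10 cornea replicate 2 (0.0543), and higher than lens by 1.38 (adjusted p = 0.00056 by limma). Ltbp1, which binds latent TGF-beta and tethers it to the matrix, was lower in adult cornea by 1.26 (adjusted p = 0.00971 by limma), lost when either P10 array was dropped (0.102 and 0.112).

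Of the 8 extracellular antagonists tested, 3 were called higher (22.6% of all tested sets) and 4 lower (26.4%) in lens than in tendon. Grem1, the BMP antagonist gremlin, read 416 and 451 in lens, 108 to 233 in the corneas and 40.9 and 66.8 in tendon. Lens was higher than tendon by 2.71 on the log2 scale (adjusted p = 1e-04 by limma), and the log2 difference of adult cornea minus lens was -1.47 (adjusted p = 0.00287 by limma). Chrd, the antagonist chordin, was higher in lens and tendon (169 to 224) than in the corneas (55.0 to 93.4), with log2 differences from adult cornea of -1.26 to lens and -1.30 to tendon. Nbl1, a secreted antagonist of the same family as gremlin, read 299 and 310.2 in tendon against 55.6 to 107 elsewhere. Dcn and Bgn, the matrix proteoglycans decorin and biglycan that bind TGF-beta, were lowest in lens and highest in tendon. Bgn was lower in adult than in P10 cornea by 1.31 (adjusted p = 0.00808 by limma), lost without P10 cornea replicate 1 or 2 (0.0888 and 0.0974). Dcn is also on the keratocyte list and Col1a1, below, on the tendon list.

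Of the 9 Smads and regulators, Smad6, the inhibitory Smad of the BMP branch, was listed below 0 on both lens arrays and at 84.9 to 157 on the other 7. Adult cornea, P10 cornea and tendon were each called higher than lens for Smad6 (adjusted p = 1.72e-06, 1.99e-06 and 1.3e-06 by limma). Smad1, which carries the BMP signal, had the opposite order, with 386 and 366 in lens and 80.5 to 164 elsewhere. Adult cornea was lower than lens for Smad1 by 1.55 on the log2 scale (adjusted p = 0.000393 by limma). Fkbp1a, a protein that holds type I receptors inactive, was lower in adult than in P10 cornea by 1.28 (adjusted p = 0.0155 by limma). The Fkbp1a call was lost when adult cornea replicate 1 or either P10 array was dropped (0.0575 to 0.177). Smad4, the partner of both branches, and Smad7 were not called in any comparison.

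Of the 17 transcripts known to respond to the pathway, 6 were lower (3.88% of all tested sets) and 0 higher (0.699%) in adult than in P10 cornea, with a median log2 difference of -0.60 against -0.13 over all sets. The pigment cell, muscle, keratocyte and tendon genes whose sums were lower in the adult are given above, and their part here was not tested. Col1a1 is both on that tendon list and among the 17 transcripts. Acta2, the smooth muscle actin of myofibroblasts, read 8.60, 33.9 and 27.7 in adult cornea and 195 and 372 in P10 cornea. The adult corneas were also below lens (666 and 448) and tendon (391 and 301). Acta2 differed between the ages by -2.92 on the log2 scale (SE 0.36, adjusted p = 0.00181 by limma), and Col1a1, a chain of type I collagen, by -1.49 (adjusted p = 0.000344 by limma). Both calls were kept in every alternative limma fit. Col1a2 (adjusted p = 0.0142), Fn1 (0.00866), Tagln (0.0122) and Msx1 (0.0374) were called by limma too, and each was lost without 1 P10 cornea array or more. The Msx1 call was lost in 9 of 17 alternatives, quantile normalization, trimmed mean scaling and a pseudocount of 1 among them (0.0531 to 0.287), and that of Col1a2 also with a pseudocount of 1 (3 of 17, 0.114 to 0.477). Those of Fn1 and Tagln were also lost with the 2 groups alone. Another probe set of Col1a2 had the opposite sign in the comparisons with lens. Tgfbi, a matrix protein named for its induction by TGF-beta and abundant in corneal stroma, was not called between the ages (log2 difference 0.21, adjusted p = 0.66 by limma). It read 2117 to 2545 in adult cornea, 2104 and 1846 in P10 cornea, 87.0 and 74.0 in lens, and 714 and 725 in tendon. Ccn2, the connective tissue growth factor, read 620.1 and 765 in tendon and 20.0 to 95.5 elsewhere, and adult cornea minus tendon was -4.09 on the log2 scale (adjusted p = 1.84e-06 by limma). These transcripts respond to other signals as well, and pathway activity was not measured.

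**Figure D4:**
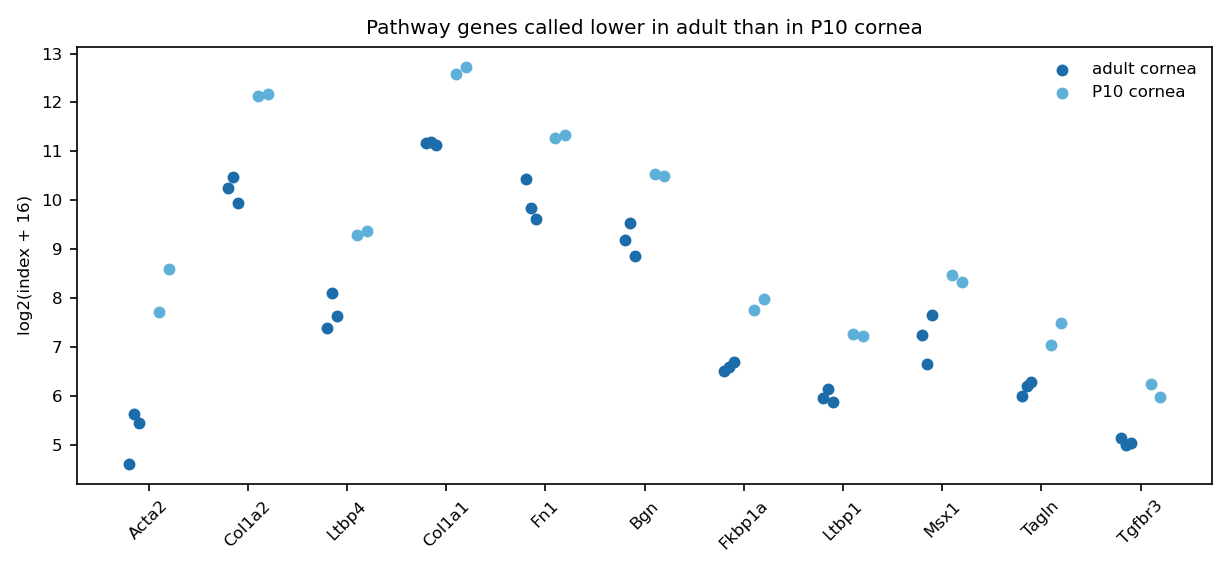
Level on the log2(index + 16) scale of the 11 listed pathway genes called lower in adult (3 arrays) than in P10 cornea (2 arrays), 1 point per array, ordered by the difference. The genes were chosen by that call, so the gap between the ages follows from the choice and adds no support. It is widest for Acta2.

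**Figure D5:**
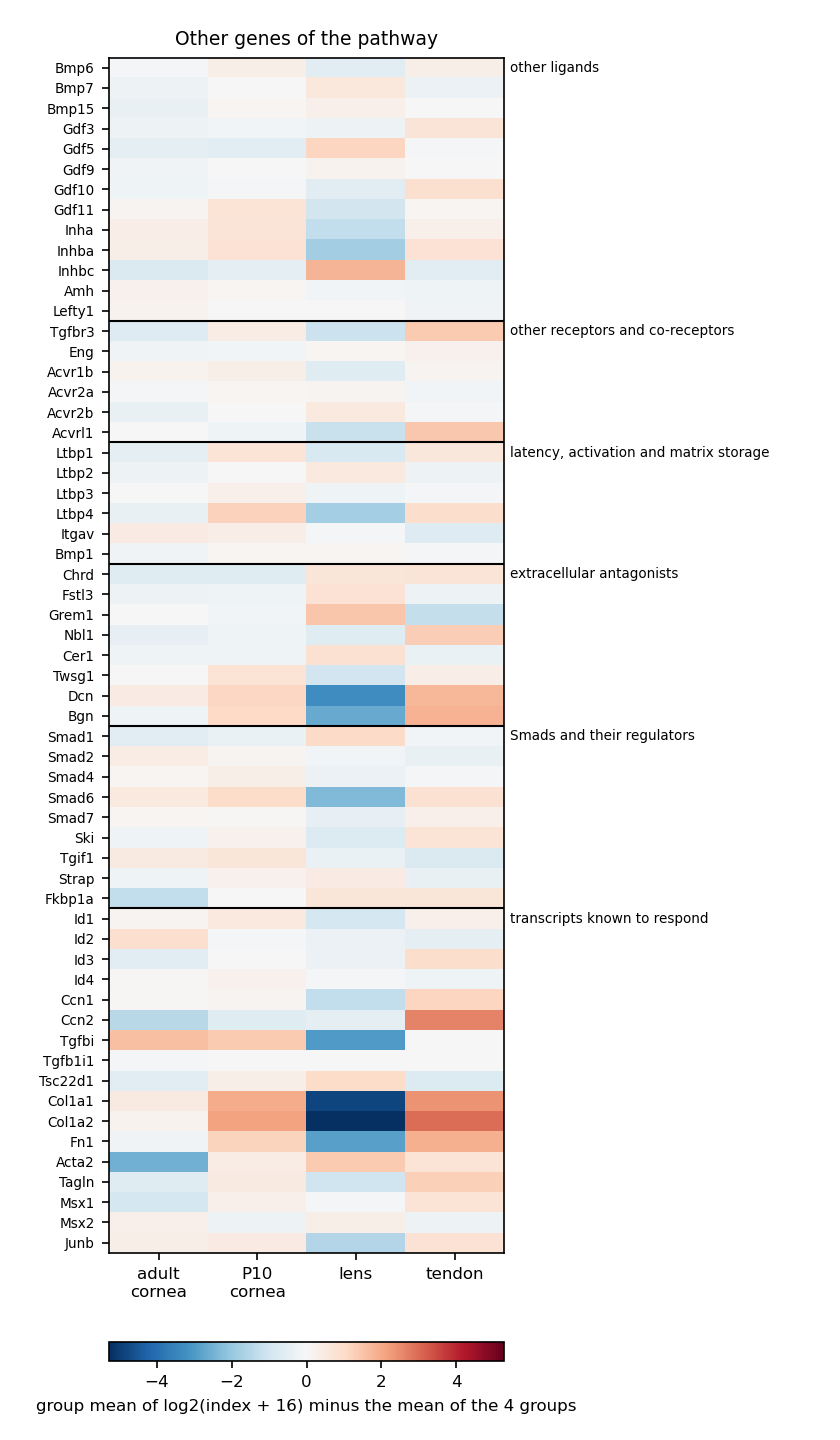
Mean log2(index + 16) of each tissue minus the mean of the 4 tissues for the 59 tested pathway genes, grouped by role; red is above and blue below that gene's mean. Lens is lowest for the collagens, Fn1, Dcn, Bgn, Tgfbi and Smad6 and highest for Inhbc, Grem1, Gdf5 and Smad1.

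For the genes with a probe set past the filter, the 3 sets on the array whose log2 values were most alike over the 9 arrays are given as a description. For Tgfb1 they were those of Gna11 (Pearson r = 0.989), Tef (0.973) and Aldh2 (0.973), which were also lowest in lens. For Tgfb2 they were Il5 (0.984), Mrpl37 (0.982) and Slc39a3 (0.974), each highest in lens and lowest in adult cornea. Tgfb3 was most like Sgcb (0.990), Fem1a (0.984) and Eno3 (0.984), and Sgcb and Eno3 are genes of striated muscle. Eno3 had a mean of 3825 in tendon, 428 in lens and 49.8 in adult cornea. Tgfbr2 was most like Apc2 (0.975), Zpr1 (0.961) and Acvr1b (0.960), the last a type I activin receptor of the pathway list. The Bmp4 set 93455_s_at was most like Kdr (0.966), Lgals9 (0.945) and Samd10 (0.942). The 9 arrays share 4 tissues and are not independent points.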

How the data were processed

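Gene expression was measured in 9 samples, 1 array each. The authors deposited 1 intensity per probe set and array, a linear expression index. Per the series' design text, Microarray Suite 5.0 gave absolute expression and dChip the normalization and a model-based index, while the submitters' processing notes name MAS5. The program behind the deposited values is not settled by these sources. Replicates are the separate RNA preparations that the labels number. Values below 0 (157 to 544 per array) were set to 0, 16 was added and log2 taken. The 66 controls were not tested. No detection calls were used, so a low index may not stand above background. Precision is limited by the number of arrays.

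A group-means model over all 9 arrays was fitted with limma 3.58.1 in R 4.3.3 (lmFit, eBayes with a mean trend, 5 residual and 4.93 prior degrees of freedom), with two-sided p-values adjusted by Benjamini-Hochberg within each of 6 comparisons and for the F test over the 4 groups. The fit was tested on simulated data. Gene names come from the platform annotation, which gives 1 symbol to 10833 probe sets, several to 396 and 0 to 1193, and 10817 Entrez identifiers matched the RefSeq gene table. Every probe set of the 7 genes is named. From the pathway list, genes were named from the called genes of each role and comparison with the largest differences (up to 5), and likeness took 3 probe sets. The other listed genes are counted. Eng, Acvr2a, Smad4 and Smad7 were named after their values were seen. Where a listed gene had several probe sets, that of highest mean stood for it. Alternatives changed the pseudocount, filter, normalization, groups fitted, block and test, or left out each array. Where alternatives are counted for a single probe set, they are the limma fits alone. The genes and lists were chosen with earlier results of these data known. The replicate numbers were checked for pairing. Over 12 same-numbered pairs in different groups, deviations from the group means correlated at r = -0.363 to 0.201 (median -0.03). Adult cornea replicate 3 and P10 cornea replicate 2, numbered differently, had an r of 0.509. In a group of 2 arrays the deviations mirror each other, so the pairs are not separate checks. Whether the numbers pair the arrays is therefore not settled. 0 pairs of arrays held identical values.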

Additional observations from a re-analysis of the deposited data

How the results depend on the processing

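Counts of the probe sets of the 7 genes called moved with the filter, the arrays and the test. With no filter 9 sets were tested in place of 6. The count then rose from 0 to 1 between adult and P10 cornea and from 1 to 2 between P10 cornea and tendon. It rose from 3 to 5 between lens and tendon and from 4 to 7 for any difference among the groups. With the stricter filter (5 of 9 arrays), which left fewer sets to test, it was 1 in both comparisons with lens of the corneas, in adult cornea against tendon, in lens against tendon and for any difference. Under the methods' test a call took a fold of at least 2, a difference of at least 100 and an unadjusted p under 0.05. The count was then 0 in adult cornea against lens, P10 cornea against lens and lens against tendon (1276, 1058 and 1242 of all 12422 sets). It was 1, Tgfb3, in adult and in P10 cornea against tendon (1027 and 634 of all sets). After Benjamini-Hochberg it was 0 in all 6 comparisons. Over all sets 73 then remained in adult cornea against lens, 55 in adult cornea against tendon and 0 in the others. P10 cornea against tendon had 2 with quantile normalization and 2 with the 2 groups alone. Leaving out each array gave counts from 1 to 4 in adult cornea against lens, 1 to 3 against tendon, 1 to 4 in P10 cornea against lens, 1 to 3 in lens against tendon and 2 to 5 for any difference.

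Of 822 values of single probe sets under the alternative limma fits, 764 stayed on their side of the threshold with their sign, 36 lost and 5 gained the call, and 17 changed sign, all of them uncalled. The sign changed in 2 kinds of case, given in log2 as first minus second tissue. Under other scalings or the block, Tgfbr2 in adult minus P10 cornea was 0.12 (quantile) and 0.043 (trimmed mean), and Bmp4 on 93455_s_at was 0.0036 (quantile) and 0.033 (trimmed mean) in adult cornea minus tendon and -0.053 (replicate block) in adult cornea minus lens. Over the fits that left out 1 array, Tgfb2 in P10 cornea minus tendon ranged from -0.50 to 0.026, and Tgfbr1 in adult cornea minus lens from -0.15 to 0.055 (0.0043 without adult cornea replicate 1). Tgfbr2 in adult minus P10 cornea ranged from -0.26 to 0.049, and Bmpr1a in P10 cornea minus tendon from -0.013 to 0.39. Bmp4 on 93455_s_at ranged from -0.36 to 0.046 in adult minus P10 cornea, from -0.053 to 0.36 in adult cornea minus lens, and from -0.25 to 0.16 in adult cornea minus tendon. For P10 cornea minus tendon it ranged from -0.070 to 0.30, and for lens minus tendon from -0.39 to 0.0011. The cause was not tested. The replicate block moved the count of calls in no comparison by over 1.5 times, and whether the numbers pair the arrays is not settled. In adult cornea against lens it ended the calls of Tgfbr2 (adjusted p = 0.072 by limma) and, with no filter, of Tgfb3 on 161382_at (0.0984). Combining no filter with the other choices was added after the data were seen.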
